A study of Mus musculus with 6 samples.

Results

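The genes described here are 34 mouse chaperones and partners of the cytosol and of mitochondria, listed by gene symbol, of 53465 genes in the count table. They fall into the HSP90 system (5 genes), the HSP70 system (6), J proteins (4), small heat shock proteins (2), the transcription factor HSF1 (1), the TRiC ring (8), prefoldin (3) and mitochondrial chaperones (5). The cells were ID8, a line derived from mouse ovarian surface epithelium and used as a model of ovarian cancer. RNA was measured in 3 libraries labelled KO and 3 labelled WT (replicates 4 to 6 of each), and the series describes cells stably transfected with sgNat10 against cells transfected with sgNC, a control guide. KO was read as the sgNat10 cells, though no sample label ties the 2 names together, and the series calls those cells a knockdown. The sgNat10 guide is named for NAT10, the enzyme that places N4-acetylcytidine on RNA, and the question asked was how its loss bears on the DNA damage response. The labels name no treatment or time, and do not say whether a library came from a clone or a pool, or whether replicates were separate cultures, so p-values measure how these libraries vary, and that variation may be technical.

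Chaperones bind proteins that are not yet folded, or have lost their fold, and keep them from clumping. In the cytosol the J proteins hand clients to HSP70, HSP70 hands some of them on to HSP90, and the TRiC ring folds actin and tubulin inside a closed chamber, with prefoldin as a carrier. Mitochondria import unfolded chains and have their own HSP70, HSP60 with its lid HSP10, and an HSP90, while HSF1 drives the heat shock genes when unfolded proteins build up in the cytosol. Tumour cells often depend on these systems, since their proteins turn over fast and many kinases are HSP90 clients.

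The libraries held 2541273, 2234305 and 3126208 counts in the KO-labelled group and 1687466, 2148715 and 1811225 in the WT group. Levels below are CPM, counts divided by the TMM-scaled library size and put on a common scale, and tests are edgeR's quasi-likelihood test, adjusted over all 8200 tested genes by Benjamini-Hochberg. Nat10, the targeted gene, had 123, 56.9 and 138 CPM in KO-labelled libraries against 102, 64.0 and 169 CPM in WT libraries (log2 fold change -0.07 ± 0.48, SE; adjusted p = 0.99996). Its mRNA was not called lower, and it checks neither the label nor the protein, because the edited position was not given in the sources used here. All 10 markers of ovarian surface and simple epithelium had counts, with sums of 4681 to 5337 CPM in KO-labelled libraries and 6225 to 6678 CPM in WT libraries. Leukocyte, endothelial, erythroid and adipocyte lists summed to at most 14.5 CPM in any library, with Cd3e, Cd79a, Hba-a1, Alas2, Adipoq and Plin1 at 0 throughout. A fibroblast list of 4 genes summed to 951 to 1325 CPM in KO-labelled libraries and 666 to 737 CPM in WT libraries. In bulk RNA, fewer cells of a type and less RNA per cell cannot be told apart, and the part of either marker list in the chaperone results was not tested.

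No cytosolic or mitochondrial chaperone changed past the threshold. Of the 34 genes, 32 had at least 10 counts in at least 3 libraries, and the same 32 entered the test. Counted in either direction, 0 of 32 passed an adjusted p of 0.05, against 0.402% of all tested genes, and DESeq2 and limma-voom also called 0 of 32, where they called 2.89% and 0.524% of all genes. At an unadjusted p under 0.05 there were 5 of 32, and 4 of 32 with estimates below 0, where all tested genes gave 6.49% and 3.79%. Abundance bears on that share: of the members of at least 200 CPM 3 of 18 (16.7%) had such a p, against 22.7% of the 818 tested genes of that level. Those 5 were Cct7, Dnaja1, Dnaja2 and Hspa9, all with estimates below 0, and Hspb8, with an estimate above 0.

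The estimates nonetheless stood mostly on one side of 0. Of the 32 tested genes, 24 had a log2 fold change below 0, with a median of -0.23, against 51.0% of all tested genes below 0 and a median of -0.02. Among the 818 tested genes of at least 200 CPM the share below 0 was 58.4% and the median -0.07, and of the 18 chaperones in that range 15 were below 0 with a median of -0.25. The summed level of the 34 genes was 17493, 16258 and 16594 CPM in KO-labelled libraries against 19233, 20427 and 19752 CPM in WT libraries, groups that did not overlap, with a ratio of means of 0.847. Scaled on library totals in place of TMM, 17 of 32 estimates were below 0, while the summed level still did not overlap. In 6 of 32 genes (18.75%) the groups did not overlap on the TMM scale, 5 lower and 1 higher. Over all tested genes 14.9% had such groups, 7.93% lower and 6.94% higher. At 200 CPM or more it was 5 of 18 members (27.8%), against 28% of tested genes, both in either direction. So counted, neither this share nor that of unadjusted p-values stood above its background at that level. All 5 of these members were lower, and the share of tested genes lower with groups apart at that level was not counted. On library totals 1 member was lower and 3 were higher with groups apart.

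**Figure D1:**
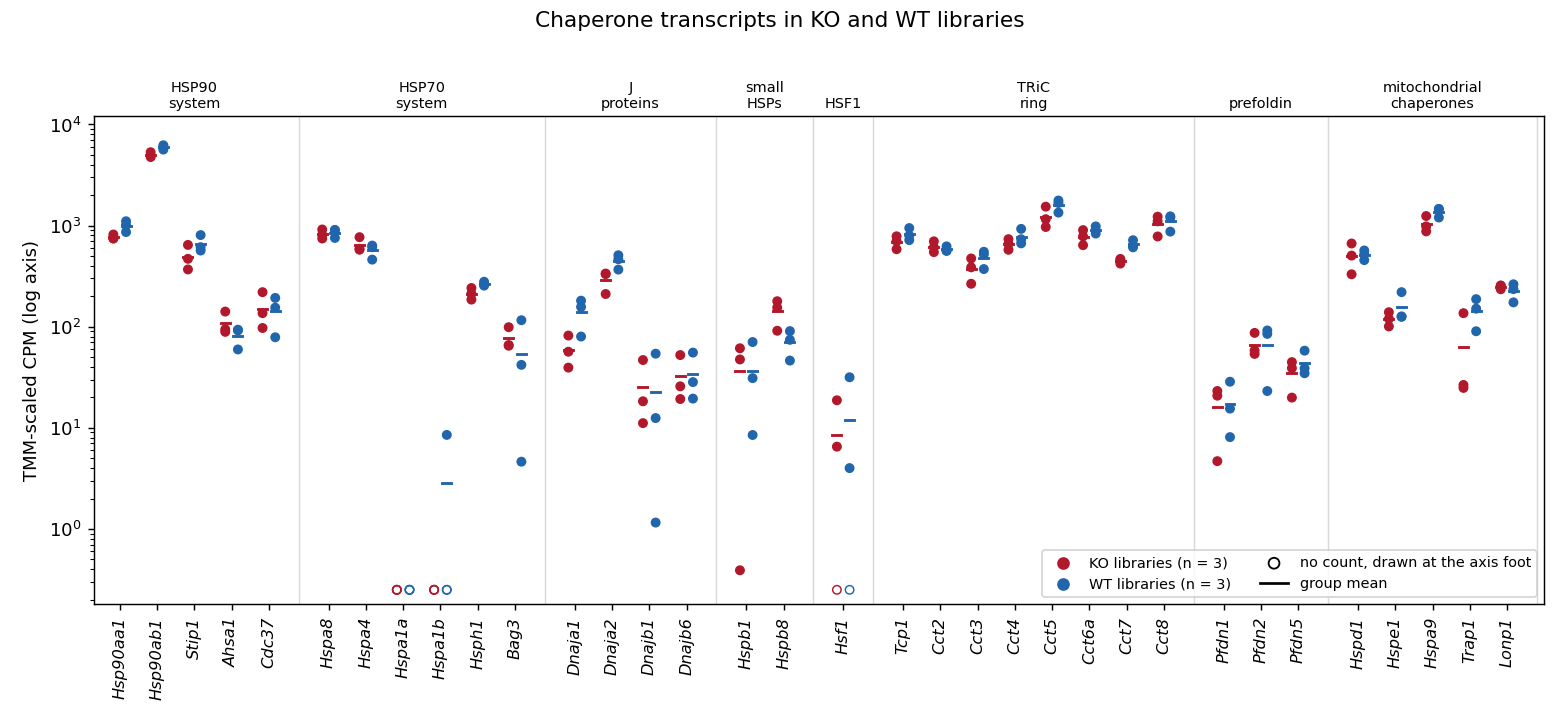
Level of each of the 34 chaperone genes in TMM-scaled CPM (log axis) in the KO-labelled libraries (red, left of each pair) and the WT libraries (blue), with the group mean as a bar and a library without counts as an open circle at the foot of the axis. Hsp90ab1 stands above all others, the 8 TRiC subunits lie in a narrow band, and Hspa1a has no count in any library.

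Heat shock elements, the inverted GAA blocks to which HSF1 binds, were looked for in RefSeq promoter windows of build GRCm38.p6. The stretches found are printed for the members with a match to the 1 pattern searched. The pattern searched was GAANNTTCNNGAA or its reverse complement TTCNNGAANNTTC, on both strands, in windows from 250 bases before to 50 bases after each start. It occurred in 4 of the 27 chaperone genes with a window, of which Hspe1 and Hspd1 share 1 site, and in 0.662% of 27025 genes. Hsp90aa1, Hsp90ab1, Hspa8, Hsf1, Cct4, Pfdn1 and Hspa9 were not matched to a window. Capitals mark the matched blocks, 5′ to 3′ on the strand of the gene. The Hspe1 stretch lies at chr1:55088055-55088080 (plus strand), at positions -93 to -68 from the start, and the Hspd1 stretch is the same site read on the minus strand, since these genes lie head to head. The Hsph1 stretch lies at chr5:149636284-149636304 (minus strand), at positions 12 to 32, after the start. The Dnajb6 stretch lies at chr5:29735848-29735868 (plus strand), at positions -50 to -30.
Hspe1: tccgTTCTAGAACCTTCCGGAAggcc
Hspd1: ggccTTCCGGAAGGTTCTAGAAcgga
Hsph1: cagaTTCTGGAAAGTTCtcct
Dnajb6: ccgaGAATCTTCCGGAAcgct
A match is a description of these letters and not a measured binding site. Members with a window but no match included Hspa1a, Hspa1b, Dnajb1, Hspb1 and Bag3. For these, absence says only that this exact pattern is not in those windows. The 4 genes with a match had log2 fold changes of -0.39 (Hspe1), -0.04 (Hspd1), -0.32 (Hsph1) and -0.08 (Dnajb6), and none of them passed the test.

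The HSP90 system stood slightly lower in KO-labelled libraries as a summed level, without a call for any of its 5 genes. Hsp90ab1, the constitutive cytosolic HSP90, was the most abundant chaperone per length of transcript, at 1984 ± 115 CPM per kb in KO-labelled libraries and 2366 ± 117 CPM per kb in WT libraries (SD, n = 3 each). Its level was 4916, 5321 and 4762 CPM in KO-labelled libraries against 6011, 6229 and 5648 CPM in WT libraries. Every KO-labelled value lay below every WT value, by a small margin relative to the level. Its fold change on the log2 scale was -0.25 ± 0.12 (SE; 95% interval -0.51 to 0.0014), with adjusted p-values of 0.776 in edgeR and 0.0527 in limma-voom. Hsp90aa1, the stress-inducible isoform, had 817, 745 and 748 CPM in KO-labelled libraries against 1104, 863 and 1010.0 CPM in WT libraries. These groups also did not overlap, with WT replicate 5 nearest to the KO-labelled values (log2 fold change -0.37 ± 0.18, SE; adjusted p = 0.828). For both genes the groups overlapped when libraries were scaled on their totals.

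The partners of HSP90 gave mixed estimates. Stip1, the bridge that passes clients from HSP70 to HSP90, averaged 494 ± 139 CPM in KO-labelled libraries and 661 ± 127 CPM in WT libraries (SD, n = 3 each; log2 fold change -0.42 ± 0.24, SE). Ahsa1, which stimulates the HSP90 ATPase, averaged 108 ± 28.7 CPM in KO-labelled libraries and 81.7 ± 19.1 CPM in WT libraries. Cdc37, which brings kinases to HSP90, averaged 151 ± 62.6 CPM in KO-labelled libraries and 142 ± 58.1 CPM in WT libraries. In all 3 the libraries of the groups overlapped. The summed level of the system was 6523 ± 266 CPM in KO-labelled libraries and 7840 ± 182 CPM in WT libraries (SD, n = 3 each), a ratio of 0.832, and Hsp90ab1 made up 76.3% of the summed CPM. The sums did not overlap under TMM, DESeq2 size factors or library totals.

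**Figure D2:**
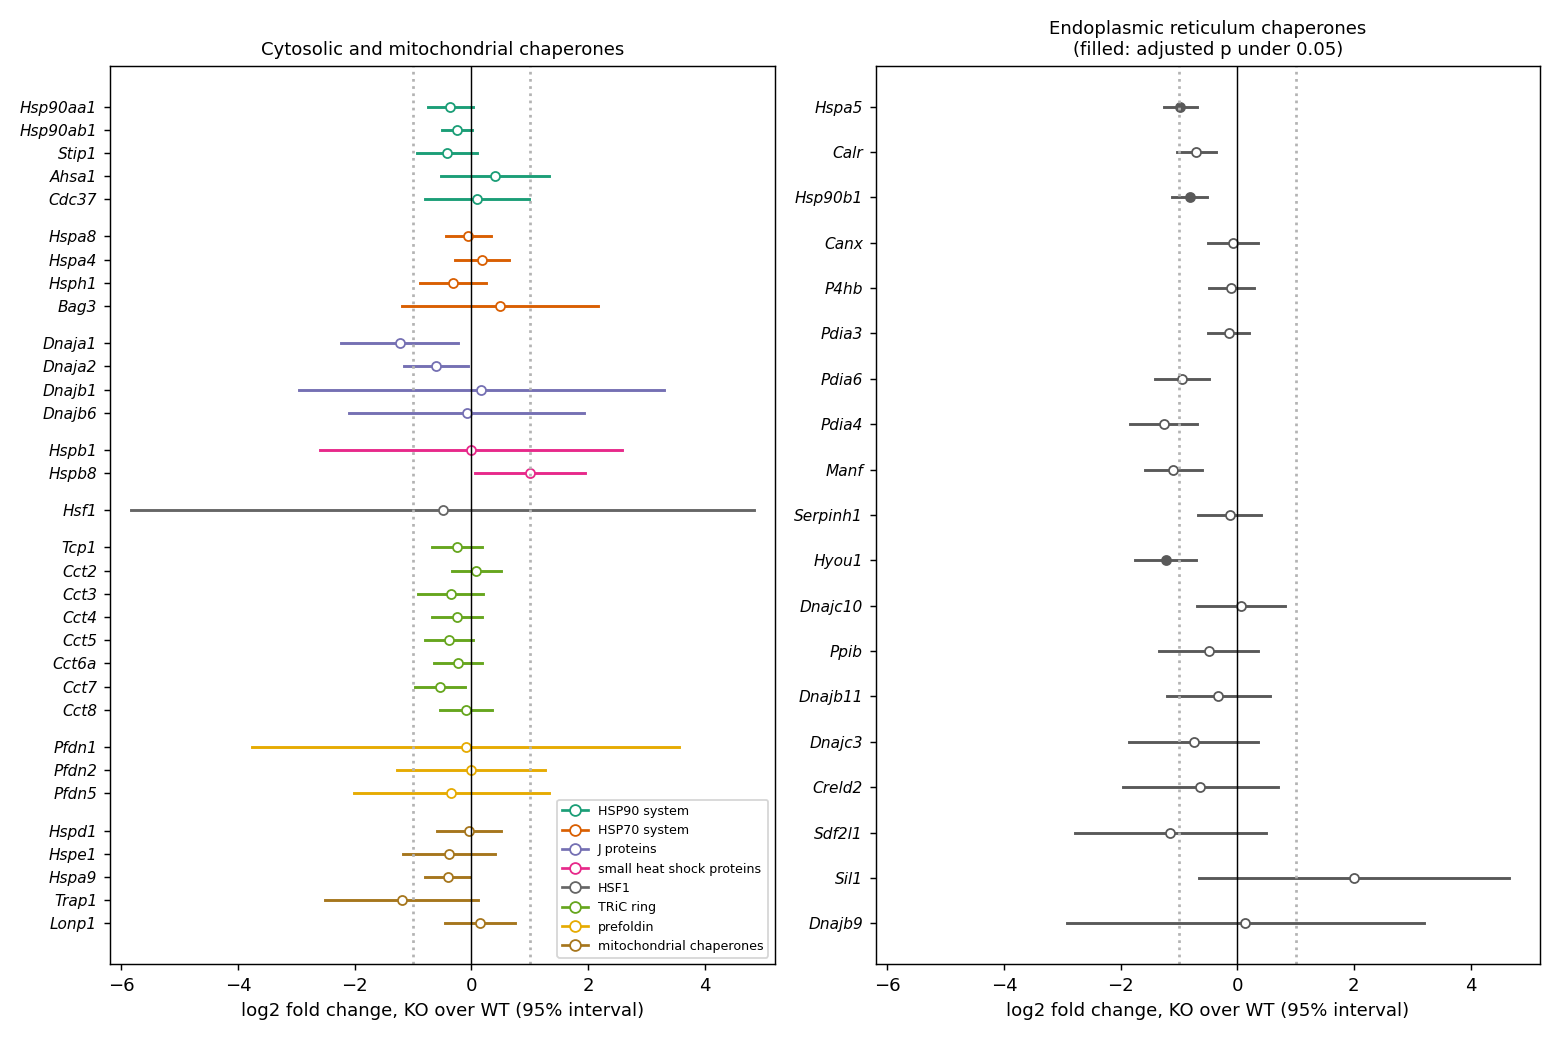
Log2 fold change of KO-labelled over WT libraries with its 95% interval, worked out from the edgeR test. The 32 tested chaperones are on the left, by system, and 19 chaperones of the endoplasmic reticulum on the right, by falling level. Dotted lines stand at a 2-fold change, and filled points mark an adjusted p under 0.05. No point is filled on the left, most lie left of 0, and 3 are filled on the right.

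In the HSP70 system no gene was called, and the estimates of its abundant genes lay on both sides of 0. Hspa8, the constitutive HSP70 of the cytosol, had 746, 810 and 916 CPM in KO-labelled libraries against 900, 906 and 755 CPM in WT libraries. The highest value was that of KO replicate 6 and the lowest that of KO replicate 4, so the groups overlapped fully. Its log2 fold change was -0.05 ± 0.18 (SE), and the 95% interval of -0.44 to 0.34 excludes a 2-fold change in either direction. Hspa4, an HSP110 family exchange factor for HSP70, averaged 645 ± 107 CPM in KO-labelled libraries and 569 ± 94.3 CPM in WT libraries (SD, n = 3 each; log2 fold change 0.18 ± 0.21, SE, and 0.046 without KO replicate 4). Hsph1, the stress-inducible HSP110, had 212, 185 and 241 CPM in KO-labelled libraries against 278, 262 and 255 CPM in WT libraries. Its groups did not overlap on the TMM scale but did on library totals (log2 fold change -0.32 ± 0.27, SE; adjusted p = 0.99996). Bag3, which links HSP70 to small heat shock proteins and autophagy, had 65.9, 98.9 and 64.8 CPM in KO-labelled libraries against 42.0, 116 and 4.63 CPM in WT libraries, a spread within WT wider than any gap between the groups.

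The heat-inducible HSP70 genes were all but silent. Hspa1a had no count in any of the 6 libraries, which allows up to 0.369 CPM over the KO-labelled group and 0.558 CPM over the WT group when a count of 0 is set at 3 counts, a limit for counting error only. Hspa1b had no count in 5 libraries and 14 counts (8.51 CPM) in WT replicate 4. These genes are near-identical copies on chromosome 17, and 66.3% of the 50-base stretches of Hspa1a and 62.3% of those of Hspa1b occur in another gene. Reads that match both places may have been left out by the counting, and the rule for them was not given in the sources used here. Neither gene entered the test.

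Among the J proteins, the co-chaperones that load clients onto HSP70, the 2 type A members had estimates below 0 and the 2 type B members could not be placed. Dnaja2 had 331, 336 and 211 CPM in KO-labelled libraries against 509, 465 and 367 CPM in WT libraries. The groups did not overlap on the TMM scale, with KO replicates 4 and 5 just below WT replicate 6, and overlapped on library totals. Its log2 fold change was -0.61 ± 0.26 (SE), with an adjusted p of 0.635. Dnaja1 had 56.6, 81.8 and 39.4 CPM in KO-labelled libraries against 157, 79.9 and 181 CPM in WT libraries. KO replicate 5 and WT replicate 5 were nearly equal, and the other libraries stood apart. The log2 fold change of Dnaja1 was -1.23 ± 0.47 (SE; 95% interval -2.24 to -0.23), the furthest from 0 of the 32, with an adjusted p of 0.547 in edgeR and 0.134 in DESeq2.

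The place of Dnaja1 in the genome bears on how its count is read. It lies on chromosome 4 (40722150 to 40737149, mm10), and 10.8% of its exon length overlaps other annotated genes, among them Smu1, a splicing factor on the opposite strand. Smu1 had 345, 326 and 343 CPM in KO-labelled libraries against 525, 517 and 528 CPM in WT libraries (log2 fold change -0.63; adjusted p = 0.435 in edgeR and 0.0321 in DESeq2). Whether the counting used strand was not given in the sources used here, and reads of the overlap cannot be told apart. Within 5 Mb of Dnaja1, 32 of 44 tested genes had estimates below 0, against 51.0% of all tested genes, with a median log2 fold change of -0.43. Medians around other members lay on both sides of 0. They were -0.35 around Hspa8 (21 of 31 below 0) and Hsf1 (60 of 94), and 0.26 around Lonp1 (16 of 35). The part of the stretch around Dnaja1 in the Dnaja1 value was not tested.

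Dnajb1, the heat-inducible partner of HSP70, ran from 1.16 to 54.1 CPM within the WT libraries alone, and its log2 fold change was 0.17 ± 1.46 (SE). Dnajb6, which holds back aggregation of polyglutamine proteins, averaged 32.5 ± 17.6 CPM in KO-labelled libraries and 34.4 ± 18.8 CPM in WT libraries (SD, n = 3 each). The 95% intervals of both genes contain a 2-fold change in either direction. The summed level of the 4 listed J protein genes was 410 ± 77.2 CPM in KO-labelled libraries and 643 ± 85.1 CPM in WT libraries. Dnaja2 made up 70.2% of it. The groups of these sums did not overlap under any of the 3 scalings. Tested J proteins of the wider co-chaperone list stood outside the sum, on both sides of 0. Their log2 fold changes were 0.34 (Dnajc2), 0.05 (Dnajc7), 0.28 (Dnajb2), -0.39 (Dnajb4) and -0.79 (Dnajc5). A sum that includes them was not made, so the separation holds for the listed genes only.

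Hspb8 was the 1 member whose estimate lay above 0 with groups that did not overlap on the TMM scale; on library totals Ahsa1 and Lonp1 were also higher with groups apart. HSPB8, a small heat shock protein, works with BAG3 in clearing misfolded proteins by autophagy. Its level was 154, 91.2 and 179 CPM in KO-labelled libraries against 74.2, 90.4 and 46.3 CPM in WT libraries. The separation rested on KO replicate 5, which exceeded WT replicate 5 by less than 1 CPM, and it held under all 3 scalings. The log2 fold change was 1.01 ± 0.44 (SE; 95% interval 0.07 to 1.95), or 2.01-fold, with an adjusted p of 0.692 in edgeR and 0.181 in DESeq2. Bag3, its partner, had an estimate of 0.50 ± 0.79 on the log2 scale.

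Hspb1, the small heat shock protein HSP27 (HSP25 in mouse), differed more among libraries of 1 group than between the groups. It had 1, 143 and 153 counts in KO-labelled libraries against 51, 17 and 122 counts in WT libraries, which is 0.390, 61.2 and 47.5 CPM against 31.0, 8.49 and 70.5 CPM. The highest value was 181 times the lowest, and both groups held a low and a high library. Its log2 fold change was -0.01 ± 1.21 (SE). Sequence shared with other genes covered 50.1% of its 50-base stretches, chiefly with the processed pseudogene Hsp25-ps1, which held at most 2 counts in any library. Hsf1, the regulator of the heat shock genes, was barely seen, with 48, 0 and 21 counts in KO-labelled libraries against 52, 8 and 0 in WT libraries, and its log2 fold change of -0.49 ± 2.50 (SE) sets no useful bound.

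The TRiC ring was measured with narrow intervals, and its subunits stood near or slightly below 0. TRiC is built from 8 different subunits in each ring, and 7 of the 8 had estimates below 0, with a median log2 fold change of -0.24 and a range of -0.54 to 0.08. All 8 intervals lay inside a 2-fold change in either direction, where 9.44% of all tested genes and 66.6% of those of at least 200 CPM did so. Cct7 had 458, 468 and 421 CPM in KO-labelled libraries against 631, 610 and 717 CPM in WT libraries. The groups were clear of each other under TMM, DESeq2 size factors and library totals. Its log2 fold change was -0.54 ± 0.20 (SE; 95% interval -0.96 to -0.11), the smallest p of the 32 genes, with an adjusted p of 0.531 in edgeR and 0.0997 in DESeq2.

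The other subunits overlapped between the groups. Cct5, the most abundant per length of transcript, had 1539, 969 and 1157 CPM in KO-labelled libraries against 1344, 1673 and 1770 CPM in WT libraries. KO replicate 4 lay above WT replicate 4, and the other KO-labelled libraries lay below all WT libraries (log2 fold change -0.39 ± 0.20, SE; adjusted p = 0.858). Tcp1 (-0.25), Cct3 (-0.36), Cct4 (-0.24), Cct6a (-0.22) and Cct8 (-0.09) had smaller or noisier log2 fold changes, and Cct2 alone had one above 0, at 0.08 ± 0.20 (SE). Per length of transcript the mRNAs of the subunits, which the ring holds in equal number, were unequal. Cct7 stood at 184 ± 10.04 CPM per kb in KO-labelled libraries and 267 ± 23.3 CPM per kb in WT libraries, and Cct5 at 659 ± 157 CPM per kb in KO-labelled libraries and 861 ± 120 CPM per kb in WT libraries (SD, n = 3 each). The summed TRiC level was 5823 ± 354 CPM in KO-labelled libraries and 6917 ± 687 CPM in WT libraries, with WT replicate 4 inside the KO-labelled range.

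Prefoldin, the jellyfish-shaped carrier of actin and tubulin chains, was represented by 3 low genes that allowed no statement of direction. Pfdn2 averaged 66.3 ± 17.9 CPM in KO-labelled libraries and 66.6 ± 37.8 CPM in WT libraries (SD, n = 3 each), a log2 fold change of -0.01 ± 0.59 (SE). Pfdn5 averaged 34.5 ± 12.98 CPM in KO-labelled libraries and 43.8 ± 12.4 CPM in WT libraries, a log2 fold change of -0.34 ± 0.79 (SE) that was -0.057 without KO replicate 4. Pfdn1 averaged 16.2 ± 10.04 CPM in KO-labelled libraries and 17.4 ± 10.4 CPM in WT libraries, a log2 fold change of -0.10 ± 1.71 (SE). All 3 overlapped between the groups. The estimate of Pfdn2 changed sign under 6 of the alternatives that kept all libraries.

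**Figure D3:**
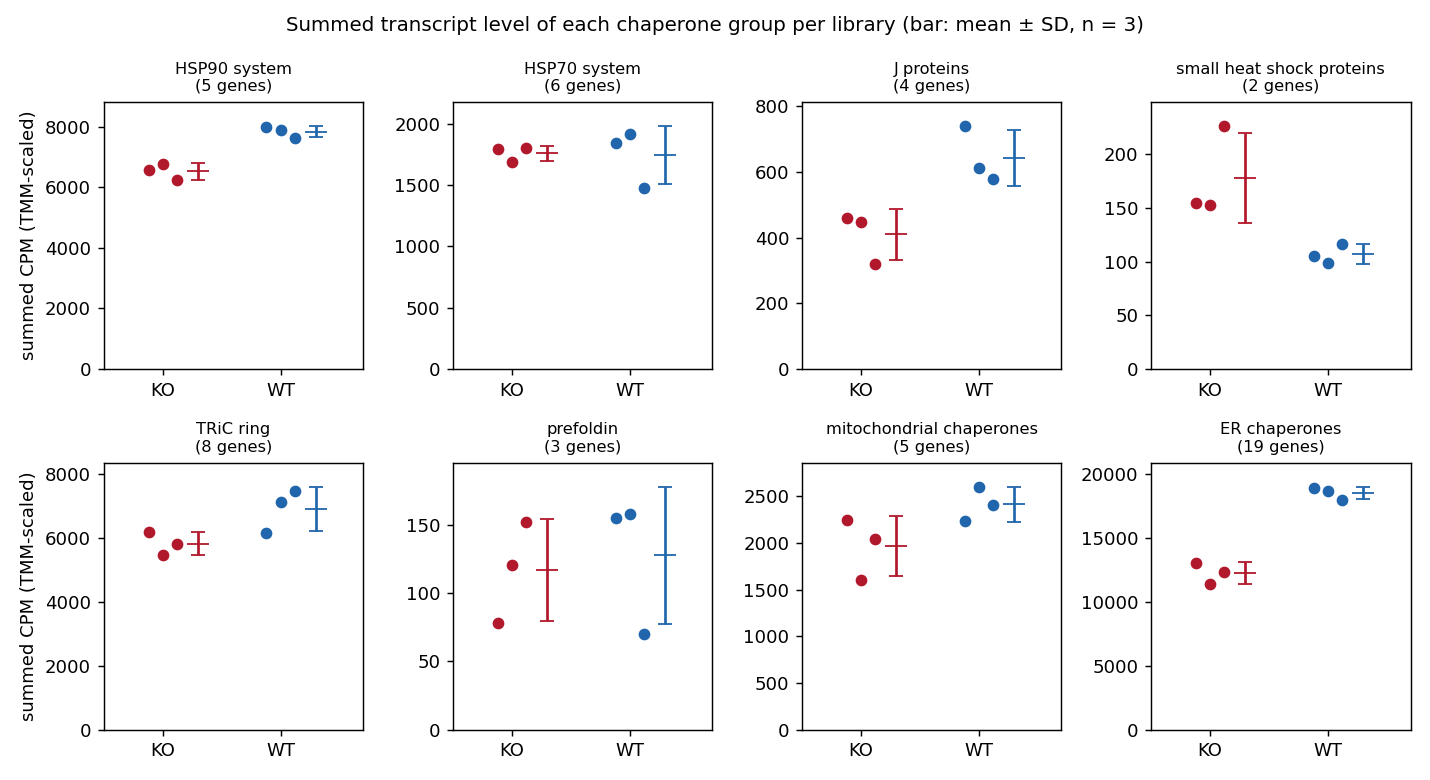
Summed TMM-scaled CPM of each chaperone system in each library, KO-labelled (red) left of WT (blue), with the mean ± SD beside the points and axes that start at 0. The groups are clear of each other for the HSP90 system, the J proteins, the small heat shock proteins and the chaperones of the endoplasmic reticulum, and overlap for the HSP70 system, TRiC, prefoldin and mitochondrial chaperones.

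Of the 5 mitochondrial chaperones 4 had estimates below 0, and none was called. Hspd1, which encodes HSP60, had 505, 330 and 665 CPM in KO-labelled libraries against 520, 568 and 456 CPM in WT libraries. The KO-labelled libraries bracketed the WT values (log2 fold change -0.04 ± 0.25, SE). Hspe1, its lid HSP10, averaged 120 ± 19.3 CPM in KO-labelled libraries and 157 ± 54.2 CPM in WT libraries (SD, n = 3 each). Its log2 fold change was -0.39 ± 0.37 (SE), and -0.072 without WT replicate 6. This pair shares the head-to-head promoter with the heat shock element printed above, and its starts lie so close that the annotated genes overlap.

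Hspa9, the mitochondrial HSP70 (mortalin) that pulls chains through the import channel, had 1243, 877 and 982 CPM in KO-labelled libraries against 1203, 1456 and 1464 CPM in WT libraries. KO replicate 4 lay just above WT replicate 4, and the other libraries were apart. Its log2 fold change was -0.41 ± 0.18 (SE; 95% interval -0.80 to -0.02), with an adjusted p of 0.713. Trap1, the mitochondrial HSP90, had 136, 26.5 and 24.8 CPM in KO-labelled libraries against 151, 187 and 90.2 CPM in WT libraries. KO replicate 4 sat within the WT range and the other KO-labelled libraries far below it. The log2 fold change of Trap1 was -1.19 ± 0.61 (SE; adjusted p = 0.863), -2.46 without KO replicate 4, and -0.81 without KO replicate 6. Lonp1, the protease of the matrix, averaged 248 ± 11.7 CPM in KO-labelled libraries and 224 ± 45.5 CPM in WT libraries (log2 fold change 0.15 ± 0.28, SE).

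Other genes of the same systems, from 3 wider lists, held no edgeR call either. Of 32 tested cytosolic co-chaperones, 17 had estimates below 0 with a median log2 fold change of -0.05, and 0 had an unadjusted p under 0.05. The smallest p-values there belonged to Chordc1, an HSP90 partner, Hsbp1, an inhibitor of HSF1, Hsf2 and Ahsa2. Of these, Hsbp1 averaged 92.9 ± 47.4 CPM in KO-labelled libraries and 46.8 ± 8.95 CPM in WT libraries (SD, n = 3 each). Hsf2, a relative of HSF1, averaged 15.6 ± 13.6 CPM in KO-labelled libraries and 57.3 ± 29.4 CPM in WT libraries. Neither was called by edgeR or DESeq2. Among 14 tested partners of TRiC, prefoldin and tubulin folding, 9 were below 0, 1 had an unadjusted p under 0.05, and the smallest p-values belonged to Pfdn4, Tbcd, Pfdn6 and Uri1. Pfdn4, a prefoldin subunit outside the 34, had 15.2, 19.7 and 9.31 CPM in KO-labelled libraries against 60.2, 38.5 and 101 CPM in WT libraries. The groups did not overlap, and the log2 fold change of -2.17 ± 0.81 (SE) had an adjusted p of 0.543 in edgeR and 0.0467 in DESeq2. Of the exon length of Pfdn4, 28.7% overlaps annotated genes on the opposite strand, so the limit given for Dnaja1 applies here too.

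For mitochondrial folding, import and proteolysis, 12 of 18 tested genes were below 0 with a median log2 fold change of -0.12, and 1 had an unadjusted p under 0.05. That gene was Pmpca, a subunit of the peptidase that removes import signals, with 83.9, 113 and 101 CPM in KO-labelled libraries against 202, 161 and 208 CPM in WT libraries. Its groups did not overlap (log2 fold change -0.94 ± 0.34, SE; adjusted p = 0.512 in edgeR and 0.0785 in DESeq2). Of the exon length of Pmpca, 20.4% overlaps an annotated gene on the opposite strand. Next came Phb2, a prohibitin, and Clpp and Clpx, the 2 parts of a matrix protease, which stood on opposite sides of 0. Clpp averaged 48.1 ± 5.32 CPM in KO-labelled libraries and 14.0 ± 7.87 CPM in WT libraries, groups that did not overlap. Clpx averaged 28.9 ± 12.6 CPM in KO-labelled libraries and 67.4 ± 32.8 CPM in WT libraries (SD, n = 3 each). Neither passed the edgeR test, with an adjusted p of 0.971 for both.

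The chaperones of the endoplasmic reticulum (ER), paralogs of several of these genes that fold secreted proteins, held 3 calls among 19 tested genes. All 3 were called lower, where 0.22% of all tested genes were called lower. Calls were more frequent among abundant genes: the 3 had means above 200 CPM, and at that level edgeR called 26 of 818 tested genes in either direction. Hspa5 (BiP), the ER HSP70, averaged 2178 ± 114 CPM in KO-labelled libraries and 4288 ± 249.3 CPM in WT libraries (SD, n = 3 each; adjusted p = 0.00404 in edgeR). Hsp90b1, the ER HSP90, and Hyou1, the ER HSP110, were also called, with adjusted p-values of 0.0185 and 0.0471. DESeq2 and limma-voom each called 7 of the 19, adding Calr, Pdia4, Pdia6 and Manf, all with estimates below 0. The median over the ER list was -0.63 on the log2 scale, against -0.22 for the cytosolic genes and -0.39 for the mitochondrial genes. Its summed level stood at a ratio of 0.662, against 0.852 for the cytosolic genes and 0.814 for the mitochondrial genes. The lists were not tested against each other, and the paralogs are compared pair by pair further on.

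The element through which the ER stress response acts on these promoters, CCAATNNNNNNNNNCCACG or its reverse complement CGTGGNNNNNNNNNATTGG, was searched in the same RefSeq windows on both strands. It was in 0 of 27 cytosolic and mitochondrial chaperones with a window and in 0.137% of all genes. Matches in Hspa5 and Hsp90b1 are shown for comparison with the heat shock elements, with the fixed letters in capitals. Both genes were picked from the ER list, and how many others of that list carry the element was not counted. The Hspa5 stretch lies at chr2:34772021-34772047 (plus strand), and those of Hsp90b1 at chr10:86705634-86705660 and chr10:86705529-86705555 (minus strand).
Hspa5: ttcaCCAATcggaggcctCCACGacgg
Hsp90b1, upstream: aagcCCAATcgcaaggagCCACGcttc
Hsp90b1, downstream: agtgCGTGGtgaggcacgATTGGtgag
The absence of a match says only that these letters are not in those windows.

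The ratio of each cytosolic or mitochondrial chaperone to its ER paralog was taken within each library, which frees it from library scaling. These 5 ratios were chosen after the data were seen. Counts of Hsp90ab1 over Hsp90b1 were 3.02, 3.29 and 3.11 in KO-labelled libraries against 2.07, 2.21 and 2.10 in WT libraries. The groups were far apart relative to their spread, at 1.65 ± 0.06 in KO-labelled and 1.09 ± 0.05 in WT libraries on the log2 scale (SD, n = 3 each). Counts of Hspa8 over Hspa5 were 0.326, 0.393 and 0.418 in KO-labelled libraries against 0.219, 0.217 and 0.165 in WT libraries. Hsph1 over Hyou1 was 0.914, 1.13 and 1.25 in KO-labelled libraries against 0.670, 0.548 and 0.527 in WT libraries. Hspa9 over Hspa5 was 0.544, 0.426 and 0.449 in KO-labelled libraries against 0.293, 0.348 and 0.320 in WT libraries. In these 4 ratios every KO-labelled library lay above every WT library.

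The differences, KO-labelled minus WT on the log2 scale, were 0.56 for HSP90, 0.93 for HSP70, 0.92 for HSP110 and 0.56 for mitochondrial HSP70. Each of the 4 gave a two-sided exact permutation p of 0.1 (0.125 adjusted over the 5), the smallest that 3 against 3 can give, so this design cannot pass 0.05. Trap1 over Hsp90b1 overlapped between the groups, at -5.15 ± 1.36 in KO-labelled and -4.36 ± 0.50 in WT libraries (exact permutation p = 0.4). The ER paralogs are those that were called, so the ratios restate that difference on a scale free of normalization.

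**Figure D4:**
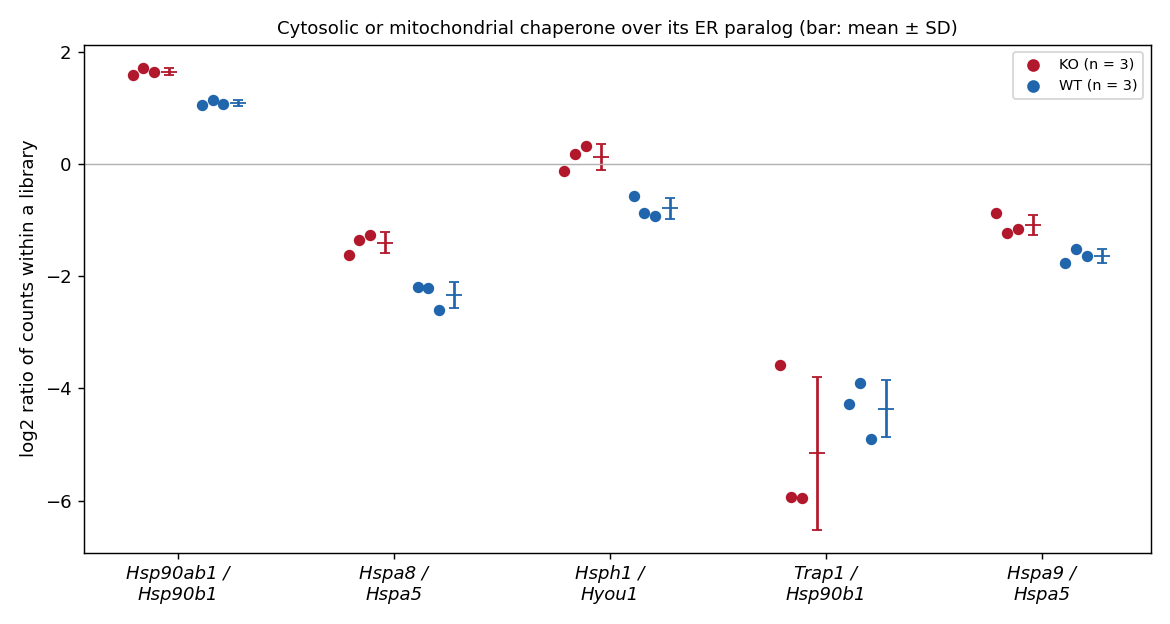
Log2 ratio of counts within each library for a cytosolic or mitochondrial chaperone over its ER paralog, KO-labelled (red) left of WT (blue), with mean ± SD (n = 3 each). The KO-labelled points lie above the WT points in 4 of the 5 ratios and overlap them for Trap1 over Hsp90b1.

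The precision of these comparisons followed abundance. The coefficient of variation between libraries of a group, as fitted by edgeR, was 21.9% to 29.3% for the 18 chaperones of at least 200 CPM and 36.0% to 188% for the 14 below that level, against a median of 84.1% for all tested genes. The counting part was far smaller, from 0.910% for Hsp90ab1 to 21.6% for Hsf1. Accordingly 17 of the 18 abundant genes, but 1 of the 14 others, had a 95% interval inside a 2-fold change in either direction. The exception among the abundant genes was Dnaja2, and the 1 low gene inside the bound was Cdc37. For Hspb1, Hsf1, Bag3, Dnajb1, Dnajb6, Pfdn1, Pfdn2, Pfdn5, Hspe1, Ahsa1, Hspb8, Dnaja1 and Trap1 a change of 2-fold in at least 1 direction was not excluded by these intervals, whose between-library part exceeded the counting part for each of them.

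**Figure D5:**
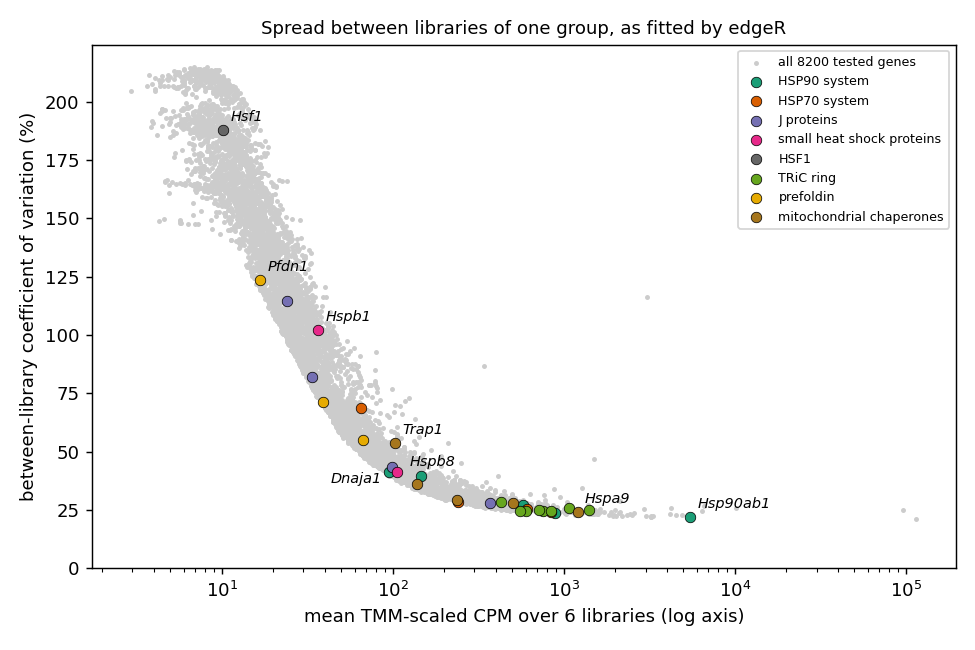
Coefficient of variation between libraries of a group, as fitted by edgeR (%), against the mean TMM-scaled CPM over the 6 libraries (log axis), for all 8200 tested genes (grey) and the 32 tested chaperones (coloured by system). The curve falls with abundance, with Hsf1 at 188% near its left end and Hsp90ab1 at 21.9% near its right end.

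Shared sequence was another limit on single values. Beside the Hspa1 pair and Hspb1, the share of 50-base stretches that occur in other annotated genes was 47.5% for Hsp90aa1, 42.1% for Hspd1, 39.4% for Hspa8 and above 10% for 13 of the 34 genes, while 10 had none. Counts assigned to pseudogene copies of the members were small, at most 25 in a library (Gm6368, a copy of part of Hsp90ab1). Gm12346, a pseudogene copy of Hsp90aa1, held 16, 16 and 21 counts in KO-labelled libraries against 4, 4 and 3 in WT libraries, next to 2093, 1741 and 2410 counts of Hsp90aa1 in KO-labelled libraries and 1816, 1727 and 1747 in WT libraries. Protein-coding genes that share shorter stretches held more. Psph, which holds 11% of the stretches of Cct6a, had 263, 172 and 177 counts in KO-labelled libraries against 209, 359 and 223 in WT libraries. Myg1, which holds 7.58% of those of Pfdn5, had 418, 358 and 296 counts in KO-labelled libraries against 416, 396 and 444 in WT libraries. Reads that fit several places were not analysed here.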

How the data were processed

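Per the labels' protocols, poly(A) RNA was selected from total RNA and copied with random hexamers. Per the submitters' processing notes, the authors used featureCounts 1.5.0-p3, HISAT2 2.0.5 and fastp with build mm10, and the deposited table holds raw read counts per gene, without normalization. The annotation release, strand setting and treatment of reads with several matches were not given in the sources used here. Columns numbered 1 to 3 were matched to replicates 4 to 6 through the labels' descriptions, and the labels KO and WT were taken as the groups.

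Of 53465 gene identifiers, 53360 were matched to a symbol in GENCODE M21 (mm10). The test was that of edgeR 4.0.16 under R 4.3.3 (filterByExpr with a minimum count of 10, TMM, robust quasi-likelihood fit with the group as the only term, two-sided, Benjamini-Hochberg adjustment, threshold 0.05). It was also run on simulated counts, drawn from the means of these data and the spread fitted by edgeR. Such counts share the model of the test, so they cannot show that it fits these libraries. The SE of a fold change is the size of its log2 value divided by the square root of the test's F statistic. Intervals are at 95%, from that SE and a t distribution. SDs are over 3 libraries, and amplified reads without molecular tags are not independent molecules. CPM per kb divides by the length of 1 transcript of the gene. Shared sequence was counted over the 50-base stretches of all annotated transcripts of a gene, against the GENCODE M21 transcripts of all other genes. Promoter windows came from RefSeq (GRCm38.p6).

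The members, their systems, the wider lists and the marker lists were chosen with earlier results of these data known. All 34 members were named, with fuller values for the 8 with the smallest p and the most abundant of each system, and the 4 smallest p-values of each wider list. Smu1, Gm12346, Gm6368, Hsp25-ps1, Psph, Myg1, Dnajb2, Dnajb4, Dnajc2, Dnajc5 and Dnajc7 fall outside that rule and were named with their values in view. Alternatives were DESeq2 1.42.0, limma-voom (limma 3.58.1), DESeq2 size factors, library totals, no filter, the replicate number as a block, at least 10 counts in 3 libraries, and leaving out each library. The 5 ratios of paralogs and the 5 Mb windows around each gene were added after the data were seen.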

Additional observations from a re-analysis of the deposited data

How the results depend on the processing

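The absence of a called member held in all 13 alternatives, with a smallest adjusted p of 0.0527 (Hsp90ab1, limma-voom), while the count over all genes moved. Calls were rare over all tested genes too (0.402% in edgeR). So 0 of 32 members lies near that share and is no result particular to the chaperones. Of all tested genes 33 were called by edgeR (15 higher, 18 lower in KO-labelled libraries), 237 by DESeq2 (107 higher, 130 lower), 91 without a filter on low counts, and 6 to 29 with 1 library left out, with the fewest, 6, without WT replicate 5 or without WT replicate 6. On library totals 43 were called, 27 higher and 16 lower, and the median of all tested genes shifted by 0.11 on the log2 scale. Of the members, 17 of 32 then had estimates below 0, and 1 was lower and 3 higher with groups that did not overlap (Cct7 lower; Ahsa1, Hspb8 and Lonp1 higher). The cause of these moves was not tested.

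The estimates of 19 tested members kept their sign in every alternative, and those of the other 13 changed sign in 37 of their 169 refits, 25 of them with 1 library left out. On library totals Hspa8 (0.058), Dnajb6 (0.037), Hspb1 (0.10), Cct8 (0.019), Pfdn1 (0.0093), Pfdn2 (0.10) and Hspd1 (0.068) had log2 fold changes above 0. That of Pfdn2 was 0.033 in DESeq2, 0.21 in limma-voom, 0.033 with DESeq2 size factors, 0.0047 without a filter and 0.14 with the replicate block. With 1 library left out the log2 fold change ran from -0.29 to 0.37 for Cdc37, -0.14 to 0.024 for Hspa8, -0.048 to 1.71 for Bag3, -0.60 to 1.89 for Dnajb1 and -0.61 to 0.44 for Dnajb6. It ran from -0.59 to 0.88 for Hspb1, -1.82 to 2.04 for Hsf1, -0.017 to 0.17 for Cct2, -0.23 to 0.085 for Cct8, -0.44 to 0.46 for Pfdn1, -0.41 to 0.29 for Pfdn2, -0.30 to 0.20 for Hspd1 and -0.0069 to 0.28 for Lonp1. Of the 19 that kept their sign, 11 moved by over 1.5 times on the log2 scale with 1 library left out, none of them called. The ranges were -0.53 to -0.072 for Hspe1, -0.58 to -0.057 for Pfdn5, 0.046 to 0.27 for Hspa4, 0.16 to 0.54 for Ahsa1, -0.65 to -0.25 for Stip1 and -2.46 to -0.81 for Trap1. They were -0.35 to -0.13 for Tcp1, -0.55 to -0.16 for Cct3, -0.34 to -0.093 for Cct4, -0.58 to -0.24 for Cct5 and -0.34 to -0.11 for Cct6a.

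Among medians by system, that of the HSP70 system ran from -0.091 to 0.13, that of the J proteins from -0.65 to -0.26 and that of the mitochondrial chaperones from -0.50 to -0.12 with 1 library left out. Restricted to members of at least 50 CPM the J protein median was -0.92, and on library totals the mitochondrial median was -0.28. Log2 ratios of summed CPM on library totals were -0.16 for the HSP90 system, -0.12 for all cytosolic members and -0.13 for all members. Without Hspb8, the small heat shock protein ratio was -0.013. With the replicate number as a block, 38 genes were called (19 higher, 19 lower) and 0 members. Over all tested genes, the deviations of same-numbered libraries from their group means had correlations of -0.02, -0.0026 and -0.0067. With 3 libraries per group and a median coefficient of variation of 84.1% over those genes, this check cannot exclude a pairing. For every tested member the fitted variation between libraries exceeded the counting part. That part takes each read as an independent molecule, so depth and spread between libraries were not separated as sources of the interval widths. Hspa1a and Hspa1b held too few counts to enter the test.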

Other observations

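Spread among libraries of 1 group was itself uneven within the list. Hspb1 had 1 count in KO replicate 4 and 143 and 153 in the other KO-labelled libraries, Trap1 had 349 counts in KO replicate 4 against 62 and 80 in the other KO-labelled libraries, and Bag3 had 8 counts in WT replicate 6 against 69 and 232 in the other WT libraries. Dnajb1 had 2 counts in WT replicate 6 and 89 and 25 in the other WT libraries. These genes were chosen after their values were seen, and the cause of the spread was not tested.

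Around Trap1 (chromosome 16), 5 of 21 tested genes within 5 Mb had estimates below 0, with a median log2 fold change of 0.22, while that of Trap1 was -1.19. Around Hspb8 (chromosome 5) the median of 59 tested genes was 0.21, and around Cct7 (chromosome 6) that of 51 was -0.16.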
